A study of Macaca mulatta with 10 samples.

Results

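HOX genes encode homeodomain transcription factors that give cells along the head-to-tail axis of the embryo their positional identity. They lie in 4 clusters, A to D, and each member carries a paralog number. Genes with low numbers, at the 3′ end of a cluster, are switched on early and toward the head, and those with high numbers, at the 5′ end, are switched on later, toward the tail and in the outer parts of the limbs. Many adult tissues keep a HOX pattern that reflects where in the body they formed, and fat from different depots of people differs in its HOX RNA.

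The HOX genes were taken as every row of the deposited tables whose macaque Ensembl identifier is paired with a symbol of the form HOX, a cluster letter and a paralog number. Of 38 such names in the Ensembl name table, 10 that are paired with one of the 28595 genes of the tables are described. A RefSeq table with 39 HOX genes added 0 pairs. The 10 genes are *HOXA7*, *HOXA9*, *HOXA13*, *HOXB1*, *HOXB8*, *HOXC10*, *HOXC11*, *HOXC12*, *HOXD8* and *HOXD12*, so that each cluster is seen through a few of its genes only. The other names were not analysed here.

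The libraries came from 5 male rhesus monkeys, each of which gave 1 library of fat (adipose tissue) and 1 of skeletal muscle, 10 libraries in all. Monkey rhesus_950807 is the case, labelled for its extreme high insulin level, and per the paper it carries a heterozygous nonsense mutation of *PRKD2*. Monkeys rhesus_920401, rhesus_940129, rhesus_940313 and rhesus_950509 are the controls, and all the monkeys lived in one facility on the same chow. There is 1 case animal and no replicate of a tissue within an animal. The fat depot and the muscle are not given in the labels or methods, so a difference between fat and muscle cannot be told apart from a difference between the body sites sampled. Libraries were made from poly(A) RNA with a strand-specific protocol, and levels are given as the deposited RPKM, a read count corrected for transcript length and sequencing depth, so that levels of different genes can be compared.

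The fat libraries held 41780234 mapped reads in the case and 30669915 to 39379286 in the controls, and the muscle libraries 33961486 in the case and 35682861 to 43268985 in the controls. The tissue labels were checked against cell type markers. Muscle fiber markers summed to 31.8 to 375 RPKM in control fat and 71497 to 95268 RPKM in control muscle, and adipocyte markers to 4483 to 9253 RPKM in control fat and 470 to 620 RPKM in control muscle. Of 11 adipocyte markers, 9 were called higher in fat and *FABP4* was called lower, with 1.71 RPKM in control fat and 42.9 RPKM in control muscle, while most of the muscle sum was *GPD1*, at 388 RPKM. The 5 mesothelium markers matched summed to 146 RPKM in case fat and 59.4 to 198 RPKM in control fat, against 0.127 RPKM in case muscle and 0 to 0.328 RPKM in control muscle. Their part in the HOX pattern of fat was not tested. In bulk tissue, fewer cells of a type and less RNA per cell cannot be told apart.

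Fat and muscle carried different sets of HOX RNA. A gene was called on in a tissue at a mean of at least 1 RPKM over the 4 controls, and by that mark *HOXA7*, *HOXB8* and *HOXD8* were on in fat, and *HOXA7*, *HOXA9*, *HOXC10*, *HOXC11* and *HOXD8* in muscle. *HOXA7* and *HOXD8* were on in both. Fat held traces of *HOXA9* and *HOXC10*, with fewer than 10 reads in at least 1 control, and 0 reads of 5 genes in any control. Muscle held *HOXA13* below 1 RPKM with at least 18 reads in every control, a trace of *HOXB8*, and 0 reads of 3 genes. *HOXC11* in muscle averaged 1.11 RPKM, just inside the mark, and *HOXA13* in muscle averaged 0.904 RPKM, just outside it. The muscle count of 5 was 6 without rhesus_940313 and 4 without rhesus_950509, and the fat count stayed at 3 without any one control.

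**Figure D1:**
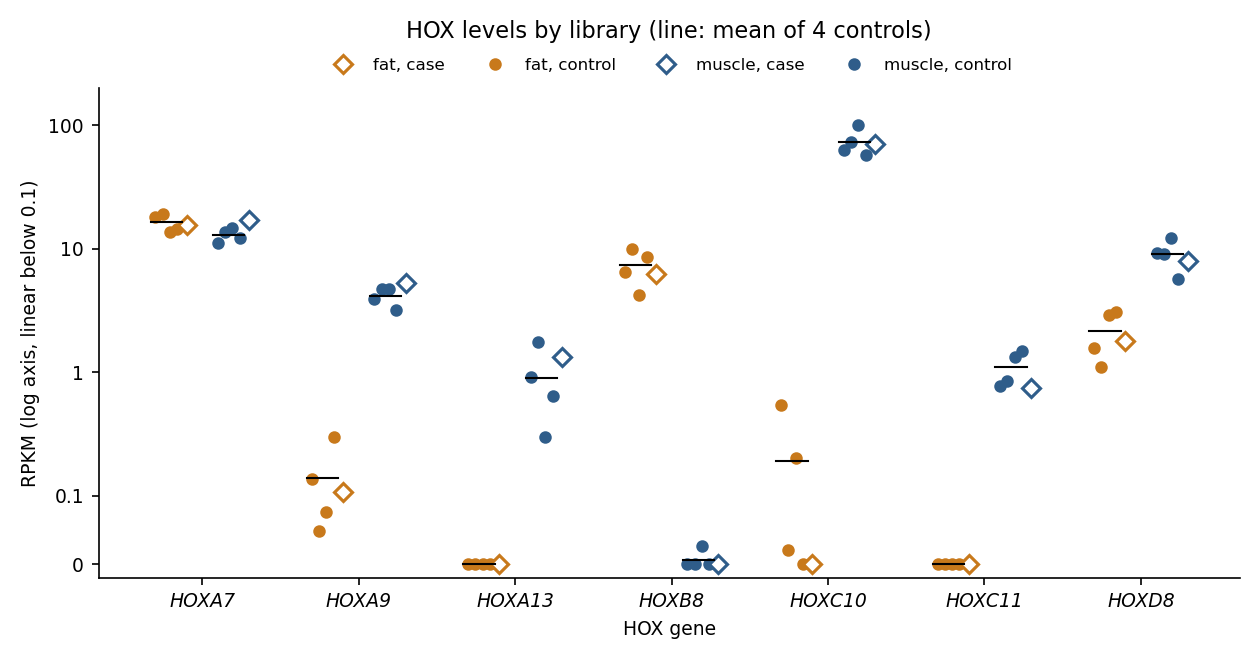
RPKM of the 7 HOX genes with reads, on an axis that is logarithmic above 0.1 and linear below it, in fat (orange, left of each pair) and muscle (blue, right). Diamonds are the case, dots the 4 controls and lines the control means. *HOXB8* sits between 4.22 and 9.96 RPKM in control fat and at most 0.0269 RPKM in control muscle, and *HOXC10* does the reverse, with 0 to 0.541 RPKM in control fat and 57.7 to 101 RPKM in control muscle.

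The genes are taken next by paralog number, head end first. *HOXB1*, which acts in the hindbrain of the embryo, had 0 reads in all 10 libraries.

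*HOXA7*, a gene of the middle of its cluster that patterns the trunk (chromosome 3, 99068701 to 99070841, forward strand, of a build that is not given in the sources used here), had the highest mean in fat among the 10. It stood at 18.2, 19.2, 13.8 and 14.6 RPKM in control fat, against 11.1, 13.6, 14.6 and 12.2 RPKM in control muscle. These ranges overlap, with the muscle of rhesus_940313 above its own fat. The direction of this gene depends on how the tissues are scaled. It was lower in fat by edgeR with TMM (log2 difference −1.10, SE 0.22, adjusted p = 0.00104) and higher in fat, without passing the test, when libraries were scaled to their mapped totals (0.35, adjusted p = 0.171). Without rhesus_940313 the TMM difference was −0.98, under the size limit of 1, and without this animal and rhesus_920401 it was −1.01 and missed the threshold (edgeR adjusted p = 0.109).

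*HOXB8*, which acts in the trunk and spinal cord and in blood cell precursors (chromosome 16, 32841736 to 32844226, reverse strand), was a gene of fat. It had 6.54, 9.96, 4.22 and 8.61 RPKM in control fat, against 0, 0, 0.0269 and 0 RPKM in control muscle. That is 1750 reads over the fat libraries and 2 over the muscle libraries, both in rhesus_940313, a ratio of 955 per mapped read (exact 95% interval 264 to 7889, for counting error only). It passed the test with adjusted p = 2.22e-06 in edgeR. It reached the mean of 10 reads needed for that test through fat alone, so the p-value adds little to these counts.

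*HOXD8*, the paralog of *HOXB8* in cluster D (chromosome 12, 39772031 to 39773413), was on in both tissues and higher in muscle. Fat held 1.56, 1.09, 2.90 and 3.06 RPKM and muscle 9.19, 9.01, 12.2 and 5.69 RPKM in the same order of controls. Each muscle library was above every fat library, by 4.20-fold on the means. The edgeR log2 difference was −3.50 with TMM (SE 0.42, adjusted p = 2.05e-05) and −2.06 with mapped totals, the scaling of RPKM. Paralogs 8 of clusters B and D thus had opposite directions between the tissues, each past the threshold.

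*HOXA9*, a posterior gene that acts in the limb and in blood stem cells (chromosome 3, 99059931 to 99063012), stood at 0.136, 0.0481, 0.0766 and 0.300 RPKM in control fat, against 3.89, 4.70, 4.69 and 3.18 RPKM in control muscle. Fat had only 3 to 24 reads per library. Muscle was 29.4-fold higher on the means of RPKM, which are scaled to mapped totals. The edgeR log2 difference was −6.28 with TMM (SE 0.52, adjusted p = 9.33e-07) and −4.84 with mapped totals. The next row of the same cluster, *HOXA7*, lies within 10 kb and was abundant in both tissues.

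*HOXC10*, a posterior gene that acts in the lumbar spinal cord and hindlimb and is known in human fat as a marker of the gluteal depot (chromosome 11, 51083774 to 51088584), was the most abundant HOX gene measured. Fat held 0.541, 0.0213, 0.203 and 0 RPKM in the controls, from 27, 1, 12 and 0 reads, and muscle 63.0, 73.4, 101 and 57.7 RPKM. In control muscle 490 of the 28595 genes (1.71%) had a higher mean. The edgeR log2 difference was −10.07 (SE 0.80, adjusted p = 6.58e-07). Its size rests on the few reads in fat. It was −8.60 with mapped totals, −11.29 without rhesus_920401 and −13.72 without rhesus_920401 and rhesus_940313, each called.

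The fat libraries of rhesus_920401 and rhesus_940313, the pair with the most *HOXC10* in fat, also held the most muscle fiber RNA. *ACTA1*, skeletal muscle actin, reached 0.343% and 0.270% of the level in the same animal's muscle there, against 0.00374% and 0.00182% in rhesus_940129 and rhesus_950509 and 0.00505% in the case. *HOXC10* reached 0.860% and 0.201% there, against 0.0290% and 0% in the other controls and 0% in the case. *HOXA9* did not follow this order, with 3.49% and 1.63% in rhesus_920401 and rhesus_940313, 1.02% in rhesus_940129 and 9.43% in rhesus_950509. *TBX15*, a muscle-high gene described below, had 1.53% and 0.192% in rhesus_920401 and rhesus_940313. It had 0% in rhesus_940129, 0.693% in rhesus_950509 and 0% in the case. A link between the *HOXC10* reads in fat and muscle fiber RNA was not tested. Without both libraries of rhesus_920401 and of rhesus_940313, *HOXC10* had 1 read in the fat libraries of the other controls. *HOXA9* and *HOXD8* then still passed the test (log2 differences −5.83 and −3.20, edgeR adjusted p = 0.000156 and 0.00314).

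*HOXC11*, the posterior neighbor of *HOXC10* with a role in the hindlimb (chromosome 11, 51071215 to 51074516), had 0 reads in all fat libraries and 0.772, 0.849, 1.32 and 1.49 RPKM in control muscle. Set against 3 reads per fat library, an average of 0.0420 RPKM, muscle was at least 26.4-fold higher (edgeR adjusted p = 1.12e-05). *HOXA13*, which forms the hands, feet and urogenital tract (chromosome 3, 99025861 to 99027990), likewise had 0 reads in fat and 0.921, 1.75, 0.296 and 0.645 RPKM in control muscle, at least 14.8-fold higher by the same floor (adjusted p = 0.000134). *HOXC11* and *HOXA13* both reached the mean of 10 reads needed for the test through muscle alone, so their p-values add little to the counts. With a CV of 68.8%, *HOXA13* varied more between control muscles than any other HOX gene that was on or low there. *HOXC12* and *HOXD12*, both at the 5′ end of their clusters, had 0 reads in all 10 libraries, which with the floor of 3 reads says that they were not detectable at this depth.

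In all, 7 of the 10 HOX genes had a mean of at least 10 reads over the 8 control libraries and were tested, and all 7 were called, at an adjusted p under 0.05 and an absolute log2 difference of at least 1. *HOXB8* was higher in fat and the other 6 lower, and *HOXA7* among these turns to the other sign with mapped totals. Of all 14045 genes tested, 48.1% were called, 28.1% higher in fat and 20.0% higher in muscle. The RPKM ranges of fat and muscle did not overlap for 6 of the 7 HOX genes, all but *HOXA7*, against 71.0% of all genes tested. The 3 genes *HOXB8*, *HOXC11* and *HOXA13* passed the filter through one tissue alone, which makes a call likely beforehand, so they add little to the count of 7. Scaling moves this comparison as a whole. The median log2 difference of all genes tested was 0.37 with TMM and 1.82 with mapped totals, and 58.5% against 90.6% of the calls were higher in fat. With mapped totals 6 HOX genes were called, all but *HOXA7*. *HOXB8* stayed higher, and *HOXA9*, *HOXA13*, *HOXC10*, *HOXC11* and *HOXD8* lower, under either scaling.

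Shares within the HOX genes of a library do not depend on that scaling. In fat, cluster A took 66.3% of the summed RPKM of the HOX genes described in the case and 63.2% ± 5.16 in the controls (SD, n = 4), cluster B 26.2% in the case and 27.4% ± 6.37 in the controls, cluster C 0% and 0.758% ± 0.938, and cluster D 7.57% and 8.64% ± 4.73. In muscle, cluster C took 69.2% in the case and 73.2% ± 2.09 in the controls, cluster A 23.1% and 17.9% ± 2.37, cluster D 7.68% and 8.81% ± 1.37, and cluster B 0% and 0.00502% ± 0.0100. Among the genes described, fat was thus led by clusters A and B and muscle by cluster C. The control ranges of clusters A, B and C did not overlap between the tissues, while that of cluster D was 3.60% to 13.7% in fat and 7.03% to 10.3% in muscle. These shares rest on 10 of 38 names, and most of cluster C in muscle is *HOXC10* alone, at 72.1% ± 2.10 of the HOX RPKM in control muscle. Rows in the clusters that have no name, described below, are not in these shares. In control fat those of cluster B averaged 2.28 to 18.0 RPKM each, and those of cluster A at most 10.6 RPKM. The order of clusters A and B in fat is thus that of the named genes only.

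By paralog number the genes described also split between the tissues. Paralogs 4 to 8 held 99.6% of the HOX RPKM in case fat and 98.7% ± 0.937 in control fat, against 24.3% in case muscle and 21.7% ± 1.19 in control muscle. Paralogs 9 to 13 held 0.446% in case fat and 1.30% ± 0.937 in control fat, against 75.7% in case muscle and 78.3% ± 1.19 in control muscle. The control ranges of both groups did not overlap between the tissues. Paralogs 9 to 13 are seen here in clusters A, C and D only, and *HOXC10* alone made 72.1% ± 2.10 in control muscle. The row with no name on the 5′ side of *HOXB8* ran the other way. It averaged 2.28 RPKM in control fat and 0.0501 RPKM in control muscle. The sum over the HOX genes described was 23.7 RPKM in case fat and 26.3 ± 3.76 RPKM in control fat, against 103 RPKM in case muscle and 102 ± 23.4 RPKM in control muscle. It leaves out the cluster rows that have no name. Those of cluster B averaged 2.28 to 18.0 RPKM each in control fat and at most 0.418 RPKM in control muscle. The sum thus does not compare the whole HOX RNA of the tissues.

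**Figure D2:**
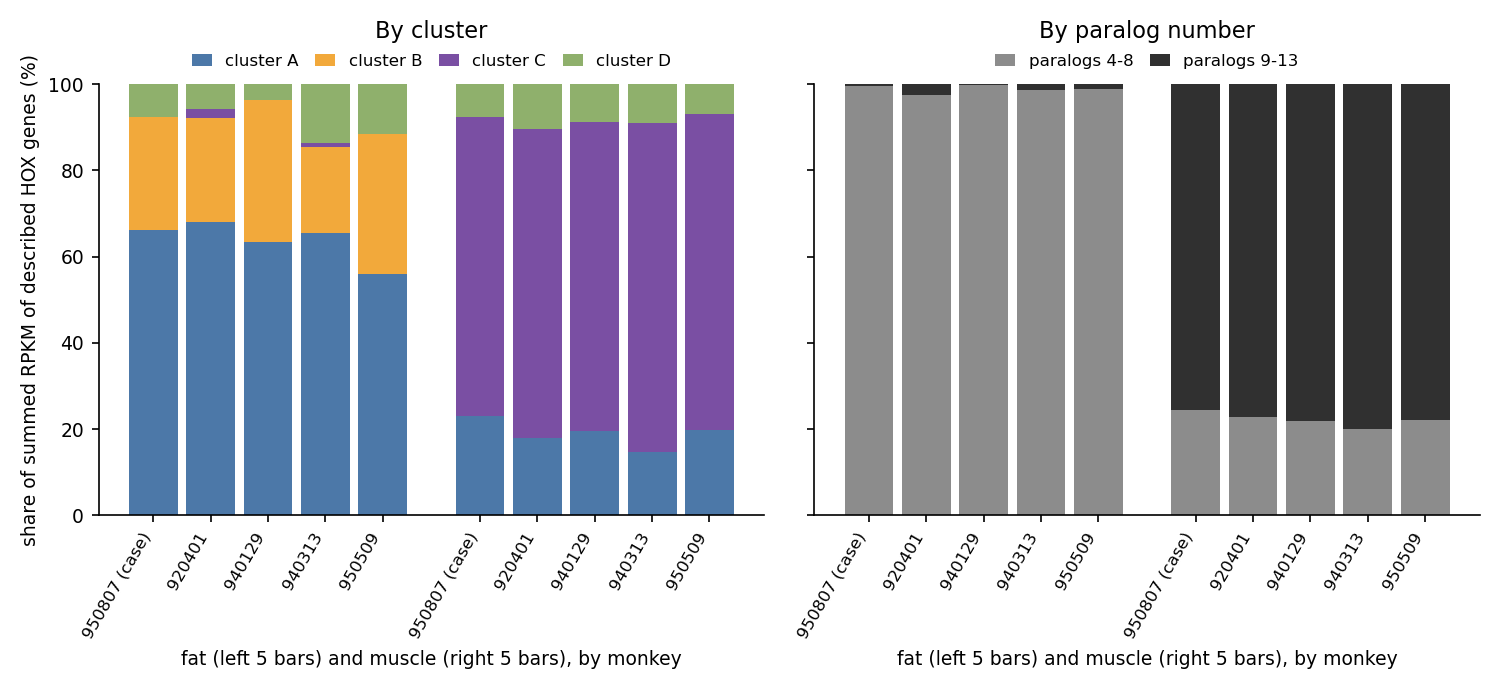
Share of the summed RPKM of the HOX genes described, in percent, by cluster (left) and by paralog number (right), 1 bar per library, with 5 fat libraries left of 5 muscle libraries and the case first in each. Clusters A and B fill most of every fat bar, cluster C takes 69.2% to 76.2% of every muscle bar, and paralogs 9 to 13 take at most 2.51% of a fat bar and at least 75.7% of a muscle bar.

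The clusters also hold rows that the name tables do not pair with a symbol. They were taken by position alone, within 75 kb of a named HOX gene, on the same strand and at least 200 bases long, a rule chosen after the values were seen, and are given no name here. There were 24, 6 in each cluster, of which with TMM 9 were called higher in fat, 5 higher in muscle, 6 not called and 4 were below the filter. Of all genes tested, 28.1% were called higher in fat and 20.0% higher in muscle. With mapped totals the counts were 14, 3 and 3, where 69.6% of all genes were called. Under the 2 scalings 13 of the 20 rows tested had the same call, and 0 were called in the other direction. In cluster A both rows between *HOXA13* and *HOXA9* were higher in muscle, at no more than 0.217 RPKM in control fat and 1.78 to 3.61 RPKM in control muscle. Of the 4 rows on the 3′ side of *HOXA7*, 3 were higher in fat, and all 4 had higher means there. *HOXA7*, abundant in both tissues, lies between these stretches.

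In cluster B all 6 rows around *HOXB8* were higher in fat, with control means of 2.28 to 18.0 RPKM in fat and at most 0.418 RPKM in muscle, like *HOXB8* itself. One of them spans others of its strand, so reads there may be shared between rows. In cluster C the row next to *HOXC10* on its 3′ side was higher in muscle (0.132 RPKM in control fat, 4.79 RPKM in control muscle). The one after it was called higher in muscle with TMM alone, with overlapping RPKM ranges. The 3 farther rows were not called with TMM and were higher in fat with mapped totals. They averaged 2.31 to 3.32 RPKM in control fat, above the mark of 1 RPKM, and 0.134 to 1.09 RPKM in control muscle. They are not part of the shares of cluster C given above. In cluster D, 1 row on the 3′ side of *HOXD8* was called higher in muscle with TMM alone and the others there were not called with TMM. The 5 microRNA rows of the clusters, of the mir-10 and mir-196 families, had 0 reads in every library. No named HOX row overlaps another row of the tables.

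**Figure D3:**
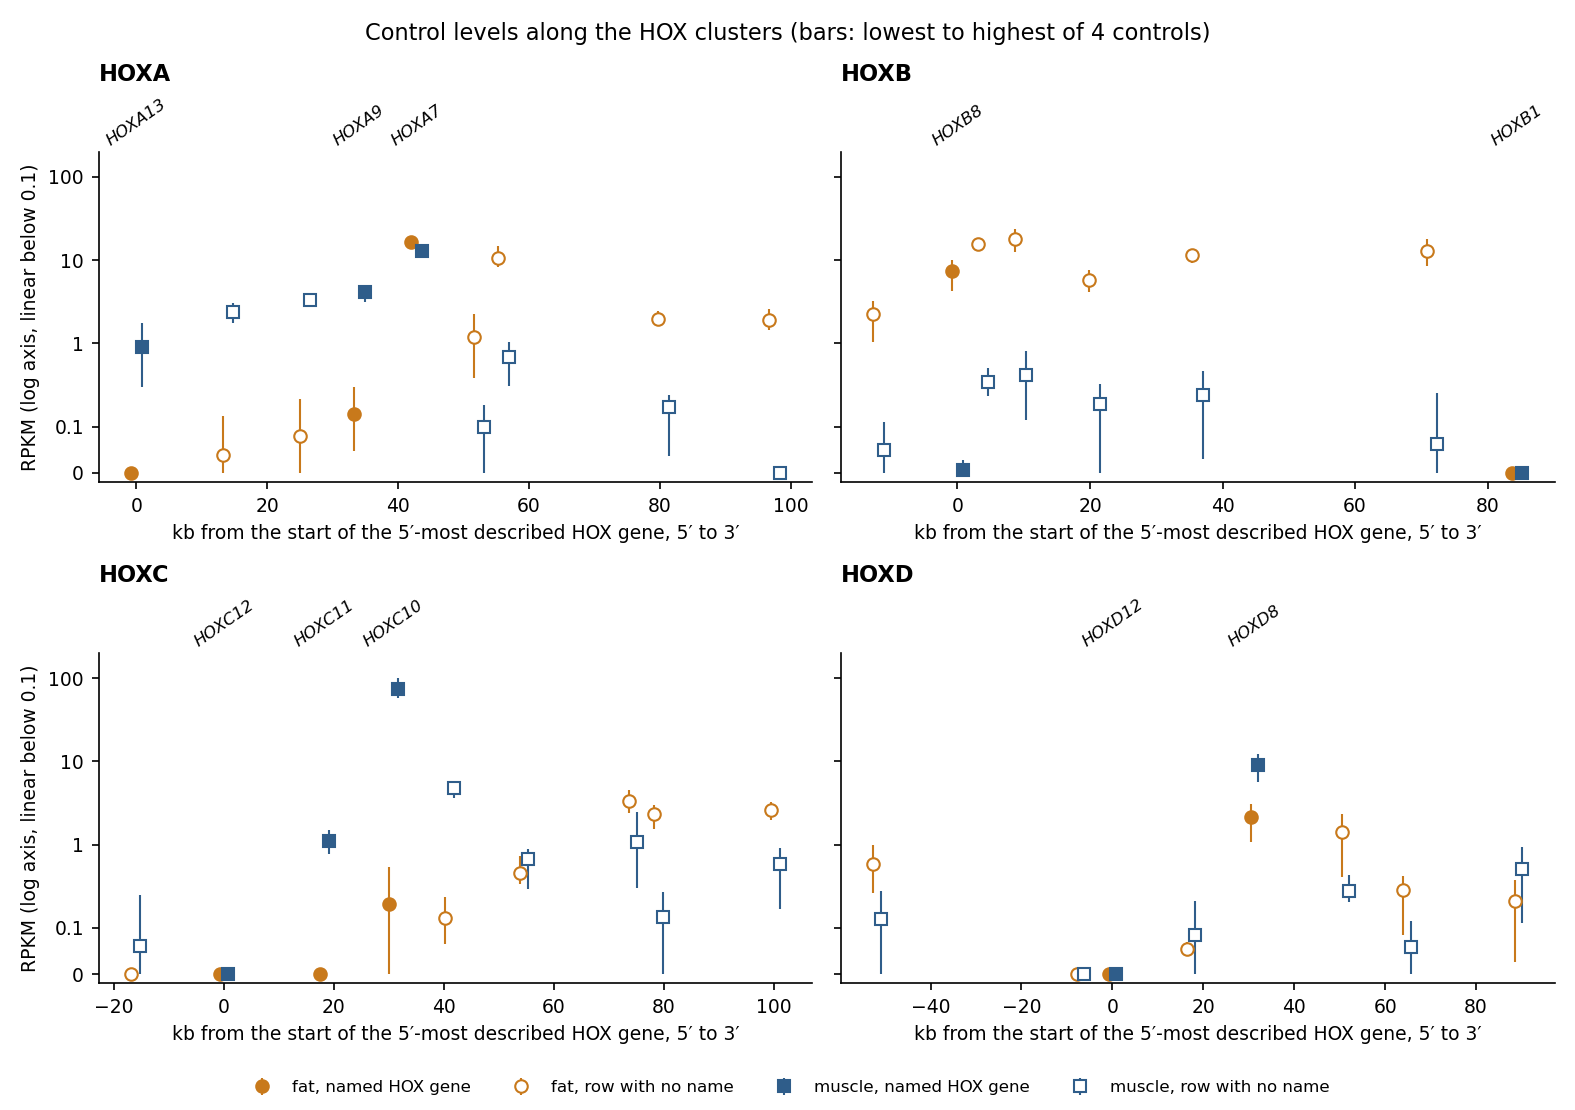
Control means of RPKM along the 4 HOX clusters, with bars from the lowest to the highest of 4 controls, against distance in kb from the start of the 5′-most named HOX gene. Orange circles are fat and blue squares muscle, filled for named HOX genes and open for rows with no name. Levels cross at *HOXA7* in cluster A (16.4 RPKM in fat, 12.9 RPKM in muscle), with muscle above on its 5′ side and fat above on its 3′ side, and fat is above muscle at every row of cluster B with reads.

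Libraries of one tissue had like HOX profiles. Over the 7 detected genes, the Pearson correlation of log2(RPKM + 0.1) was 0.947 to 0.991 between case and control fat and 0.926 to 0.979 between control fat libraries, and 0.963 to 0.997 between case and control muscle and 0.955 to 0.995 between control muscle libraries. Over 11270 genes, with log2(RPKM + 1), the correlation was 0.900 to 0.948 between control fat libraries and 0.969 to 0.975 between control muscle libraries, so high values within a tissue are not particular to HOX genes. Between the fat and the muscle of one animal the HOX correlation was −0.223 to 0.102. These are across genes of 1 family, which are not independent, and carry no test. Within fat, *HOXA7* varied least between controls among the genes that were on (CV 16.1%), and *HOXB8* and *HOXD8* more (34.2% and 45.4%). Within muscle, *HOXA7* varied least (12.0%), and *HOXC10*, *HOXD8* and *HOXC11* had CVs of 26.1% to 31.8%.

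The case was then set against the 4 controls, to see whether its HOX levels lay apart from theirs in either tissue. In fat it held 15.6 RPKM of *HOXA7*, 6.21 of *HOXB8*, 1.80 of *HOXD8*, 0.106 of *HOXA9* and 0 of *HOXC10*, each within the range of the controls. Thus 0 of the 4 genes tested lay outside it, against 36.9% of all genes tested. With TMM-scaled counts *HOXA7* fell just below that range. Of the 4 HOX genes tested in fat, 0 were called by edgeR or DESeq2 and 0 had an unadjusted p under 0.05. The log2 differences were −0.58 (95% interval −3.84 to 2.69) for *HOXA9*, −0.47 (−2.39 to 1.45) for *HOXD8*, −0.44 (−1.69 to 0.80) for *HOXB8* and −0.28 (−1.28 to 0.72) for *HOXA7*. Each interval includes a 2-fold lower level in the case.

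Cell type markers were summed in the same libraries. Of 14 marker lists, 8 summed to more in case fat than in any control fat, 0 to less and 6 to a value within the range, and 0 of their genes were called by edgeR. T and NK cell markers summed to 25.5 RPKM in case fat and 5.76 to 15.5 RPKM in control fat, macrophage markers to 371 RPKM in case fat and 106 to 306 RPKM in control fat, fibroblast and stroma markers to 3219 RPKM in case fat and 1654 to 2891 RPKM in control fat, and endothelial markers to 197 RPKM in case fat and 114 to 167 RPKM in control fat. RPKM is scaled to mapped totals. With that scaling the median log2 difference of all genes in case fat was 0.13, against −0.07 with TMM. With TMM the median of the endothelial markers was −0.06, near that of all genes, so the median gene did not match their higher sum. The medians were 0.68 for macrophage and 0.41 for fibroblast and stroma markers. That of T and NK cell markers also lay above that of all genes. Lymph node stroma rests on *CCL19* alone (6.85 RPKM in case fat, 0 to 2.88 RPKM in control fat). The other lists above the controls were blood, Schwann cell and skin markers. Blood rests on *ALAS2* alone (22.7 RPKM in case fat, 2.86 to 17.2 RPKM in control fat). Skin rests on *KRT10* alone (0.268 RPKM in case fat, 0 to 0.0299 RPKM in control fat). B cell markers, adipocyte markers and muscle fiber markers lay within the range. Their part in the HOX levels was not tested. Across all 14477 genes in fat, 0 (0%) were called by edgeR, 420 had an unadjusted p under 0.05, and DESeq2 called 12.

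In muscle the case held 70.6 RPKM of *HOXC10*, 7.91 of *HOXD8* and 1.32 of *HOXA13*, within the range of the controls. *HOXA7* at 17.2 RPKM and *HOXA9* at 5.33 RPKM lay above every control, and *HOXC11* at 0.748 RPKM below. These are 3 of the 6 HOX genes tested in muscle, against 48.4% of all genes tested there. Of the 14 marker lists, 1 summed to more in case muscle than in any control muscle, 3 to less and 10 to a value within the range. The list above was skin, from *KRT10* alone, at 0.0347 RPKM in case muscle and 0 RPKM in control muscle. Smooth muscle and pericyte markers summed to 65.5 RPKM in case muscle and 109 to 157 RPKM in control muscle, and T and NK cell markers to 0.326 RPKM in case muscle and 0.426 to 3.06 RPKM in control muscle. Their part in the HOX levels was not tested. The log2 differences were −0.74 (95% interval −2.21 to 0.73) for *HOXC11*, 0.39 (−1.57 to 2.35) for *HOXA13*, −0.35 (−1.31 to 0.60) for *HOXD8*, 0.25 (−0.42 to 0.92) for *HOXA7*, −0.22 (−0.96 to 0.51) for *HOXC10* and 0.21 (−0.58 to 1.01) for *HOXA9*. Of the 6 HOX genes tested, 0 were called by edgeR or DESeq2 and 0 had an unadjusted p under 0.05.

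Across all 12172 genes in muscle, 0 (0%) were called by edgeR, 1055 had an unadjusted p under 0.05, and DESeq2 called 102. An exact permutation test of 1 animal against 4 cannot give a p below 0.2. With 1 case library per tissue there is no spread within the case, and edgeR takes that of the controls for it.

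**Figure D4:**
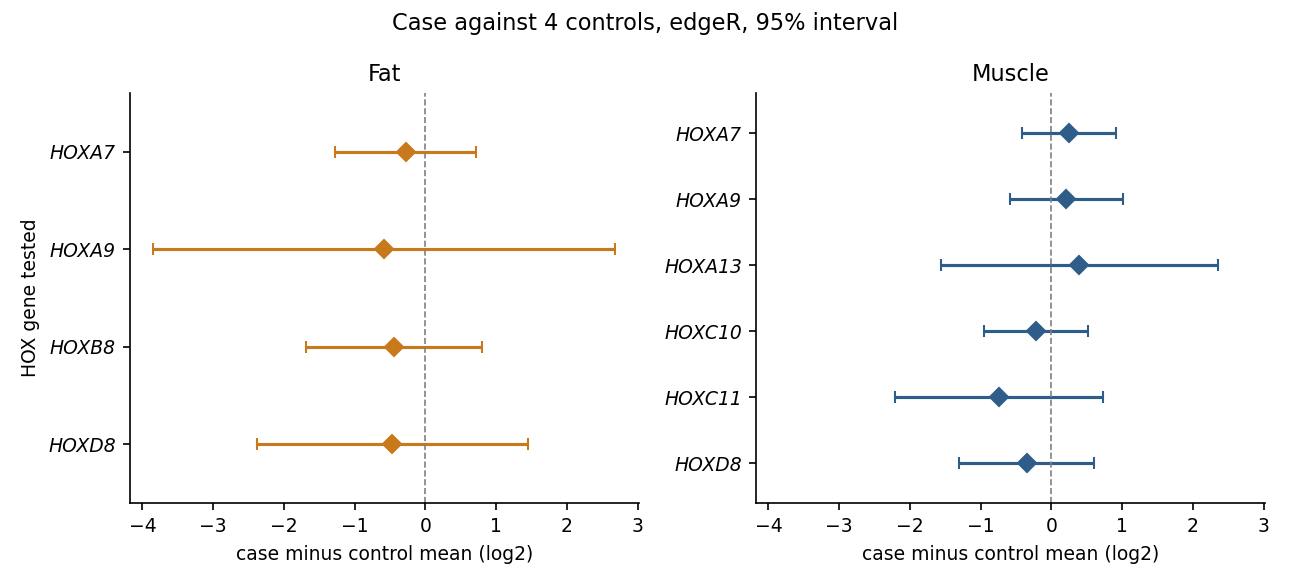
Log2 difference of the case from the mean of 4 controls in edgeR, with 95% intervals, for the HOX genes tested in fat (left, orange) and muscle (right, blue). All intervals drawn include 0.

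The difference between the case effects of the tissues was tested by an interaction term. Of 7 HOX genes 0 were called by edgeR or DESeq2 and 0 had an unadjusted p under 0.05. Among the alternatives *HOXC10* had one with no filter and without rhesus_950509, and for case fat, where it was otherwise under the filter on reads, without rhesus_950509. It was called in none of them. Of all 14153 genes 0 (0%) were called by edgeR, 817 had an unadjusted p under 0.05, and DESeq2 called 12.

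Genes that work with or upstream of HOX proteins were described in the same fits. Of the TALE homeodomain cofactors, which bind DNA together with HOX proteins, 8 of 9 were matched and tested, and with TMM 2 were higher and 1 lower in fat, with a median log2 difference of 0.51 against 0.37 over all genes, of which 28.1% were higher and 20.0% lower. With mapped totals 6 were higher and 0 lower, with 69.6% of all genes called. *MEIS1* averaged 12.8 RPKM in control fat (11.8 to 14.5) and 0.135 RPKM in control muscle (0.104 to 0.206), a log2 difference of 5.11 (SE 0.34, edgeR adjusted p = 1.38e-07). *MEIS2* averaged 10.9 RPKM in control fat and 0.0930 RPKM in control muscle, a log2 difference of 5.47 (SE 0.78). The partner *PBX2* did not reach the size limit (−0.94 with TMM, 0.51 with mapped totals), and *PKNOX2* was lower in fat with TMM (−1.34) but stood at 0.10 with mapped totals.

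Polycomb and trithorax proteins keep HOX clusters silent or active. Of 33 of 38 matched and tested, 2 were higher and 7 lower in fat with TMM, while with mapped totals 19 were higher and 0 lower, so no direction holds for the group. Of all genes tested, 28.1% were higher and 20.0% lower with TMM, and 69.6% were called with mapped totals. The 4 with the smallest p were *KMT2D*, a histone methyltransferase (−2.37 with TMM, −0.91 with mapped totals), *PCGF1* (−1.77 and −0.31) and *PHC1* (−1.26 and 0.18), both Polycomb subunits, and *CTCF*, a boundary factor (−1.20 and 0.24). The upstream genes *GDF11* and *GMNN* missed the threshold with TMM (edgeR adjusted p = 0.118 and 0.428) and were higher in fat with mapped totals.

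Other transcription factors and coactivators of body region and limb, most of them homeobox and T-box genes, were taken next. Of 45, 27 were matched and 15 tested, with 3 higher and 9 lower in fat and a median log2 difference of −2.84 (6 and 6 with mapped totals, median −1.42 against 1.82 over all genes). These 12 of 15 called compare with 48.1% of all genes with TMM and 69.6% with mapped totals. Some of the 15 passed the filter on reads through one tissue alone, which makes a call likely beforehand. Among them are *WT1*, given below, and *PAX3*, with 0.00431 RPKM in control fat and 0.483 RPKM in control muscle. The count is thus no measure of an excess over all genes. *TBX15*, a gene of skeletal development and, in mice, of muscle fiber type, averaged 0.273 RPKM in control fat (0 to 0.720) and 47.0 RPKM in control muscle (35.6 to 65.5). *TBX1*, a pharyngeal and muscle gene, averaged 0.426 RPKM in control fat and 33.99 RPKM in control muscle, and *EYA4*, a transcriptional coactivator, 0.0446 RPKM in control fat and 3.34 RPKM in control muscle. *WT1*, a gene of mesothelium and visceral fat in mice, ran the other way, with 12.8 RPKM in control fat (9.50 to 19.1) and 0.00426 RPKM in control muscle. All 4 were called under either scaling.

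Retinoic acid switches on genes at the 3′ end of HOX clusters. Of its 19 enzymes, receptors and carriers, 18 were matched and 17 tested, with 8 higher and 4 lower in fat, a median of 0.25 against 0.37 over all genes (11 and 3 with mapped totals). Over all genes 28.1% were higher and 20.0% lower with TMM, and 69.6% were called with mapped totals. The synthesis enzymes *ALDH1A1*, *ALDH1A2* and *ALDH1A3* averaged 182, 27.4 and 38.7 RPKM in control fat and 3.38, 1.61 and 1.16 RPKM in control muscle, with log2 differences of 4.29, 2.63 and 3.63. *RXRG*, a receptor of muscle, averaged 7.55 RPKM in control fat and 70.7 RPKM in control muscle (−4.73). No gene of these lists was called between the case and controls in either tissue, where edgeR called 0 of all genes. Summed over their genes, 3 of these 5 lists lay above every control in case fat and 0 below. In case muscle 3 lay above and 1 below. Of all single genes tested, 36.9% in fat and 48.4% in muscle lay outside the control range. The retinoic acid list stood at 257 RPKM in case muscle and 150 to 186 RPKM in control muscle. Of that sum, *CRABP2* alone held 81.5 RPKM in case muscle and 12.7 to 22.1 RPKM in control muscle. With TMM the median log2 difference of this list in case muscle was −0.20, against −0.04 over all genes. Polycomb and trithorax genes, above by summed RPKM in both tissues, had TMM medians of −0.06 in case fat and −0.05 in case muscle. Over all genes the median in case fat was −0.07. TALE cofactors, also above in both, had 0.17 and 0.42. Region and limb factors, above in case fat, had 0.41 there.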

How the data were processed

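Poly(A) RNA of fat and skeletal muscle from 5 monkeys was sequenced by the authors. The submitters' processing notes name TopHat 1.2.0, and the paper's methods name another release and say that uniquely mapped reads alone were used. The counting tool, the genome build, the annotation and whether counting used strand were not given in the sources used here. The authors deposited read counts per gene and RPKM values, which equal the counts divided by longest transcript length and mapped reads (largest relative deviation 5e-14). Starts are given counted from 1.

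Symbols were found for 15556 genes (54.4%). HOX genes and the other lists were chosen with earlier results of these data known. 1 HOX gene that the rule finds is not reported here. The genes named are all other HOX genes, the 5 HOX genes with the largest case difference per tissue (all tested ones are given) and up to 4 of each other list with the smallest p between tissues.

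Counts were scaled by TMM and tested with edgeR 4.0.16 (quasi-likelihood, R 4.3.3) over genes that averaged 10 or more reads, with Benjamini-Hochberg adjustment over all genes tested. SEs are the log2 difference divided by the root of F, and so approximate. The tissue comparison used the 4 controls. Shares over the HOX genes were given no p, since the genes were chosen with results known. Alternatives were DESeq2 1.42.0, limma 3.58.1 on log2(RPKM + 0.1) and log2(RPKM + 1), other scalings, filters and thresholds, leaving out each control, leaving out rhesus_920401 and rhesus_940313, 1 fit of all 10 libraries, and the animal as a block. Both tissues come from the same animals, so the monkey numbers pair the samples, although deviations of an animal's fat and muscle libraries from the control means correlated by only −0.17 to 0.161 across 11270 genes. Scripts were tested on simulated data. The depth of each library limits low genes, and intervals from reads cover counting error only. Each animal gave 1 library per tissue, so p-values measure the spread between animals and libraries together.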

Additional observations from a re-analysis of the deposited data

How the results depend on the processing

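With 4 controls and 1 case, only large differences between case and controls could pass, and HOX genes with under about 10 reads cannot be compared. The count of 7 HOX genes called between fat and muscle was 5 to 7 under the alternatives, with 5 where a filter at 1 RPKM left 5 to test or limma used log2(RPKM + 1), and 6 to 7 leaving out each control. With the animal as replicate block it was 7 of 7, with 6622 of all genes called, and the block changed no other HOX call. All genes called between tissues fell to 3668 without both libraries of rhesus_920401 and of rhesus_940313, which leaves 2 controls, and the cause was not tested for the other settings below.

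*HOXA7* between fat and muscle turned to 0.351 with mapped totals, 0.343 with limma on log2(RPKM + 0.1) and 0.323 on log2(RPKM + 1). For the difference of case effects, not called, *HOXD8* turned to 0.004 and 0.011 in limma and ranged from −0.286 to 0.271 leaving out each control, and *HOXA9* from −1.077 to 0.004. *HOXB8*, at 2.57 with 2 reads in muscle, turned to −0.081 and −0.145 in limma and to −0.860 without rhesus_920401 and rhesus_940313, and ranged from −0.667 to 3.299 leaving out each control. Without rhesus_940313 all muscle libraries are at 0 reads of it, so that edgeR cannot estimate this difference.

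Where edgeR called 0 of all genes between case and controls, other settings called some. In fat these were 12 with DESeq2, 32 without rhesus_920401 and rhesus_940313, and 0 to 8 leaving out each control, the 8 without rhesus_920401. In muscle they were 102 with DESeq2, 10 with no filter, and 0 to 3 leaving out each control, the 3 without rhesus_940313. For the interaction they were 12 with DESeq2 and 1 with limma on log2(RPKM + 0.1). None was a HOX gene.

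Counting reads in place of RPKM, which weights genes by length, moved control shares in fat to 57.6% for cluster A and 35.1% for cluster B, and in muscle to 76.9% for cluster C, 5.92% for cluster D, 16.5% for paralogs 4 to 8 and 83.5% for paralogs 9 to 13.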
